A study of Mus musculus with 4 samples.

Results

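The 10 genes described here encode the mouse MHC class II molecules H2-A and H2-E, the proteins that load them with peptide, and their transactivator Ciita. They were picked by symbol alone, and all 10 were found among the 22700 rows of the deposited values. The chains of the cell-surface molecules are H2-Aa, H2-Ab1 and H2-Eb1, and Cd74 is the invariant chain. H2-DMa, H2-DMb1 and H2-DMb2 encode the peptide exchange factor H2-DM, and H2-Oa and H2-Ob encode its inhibitor H2-O.

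MHC class II molecules carry peptides from endocytosed proteins to the cell surface, where CD4+ T cells read them. The invariant chain fills the groove of a newly made class II molecule and leads it to the endosome. There proteases cut the chain down to a short remnant, H2-DM exchanges the remnant for other peptides, and H2-O restrains H2-DM. Ciita does not bind DNA itself: it is recruited to the X and Y boxes of class II promoters by the RFX, CREB and NF-Y factors that sit on them. In macrophages interferon gamma is the classical inducer of Ciita, through Jak kinases and Irf1, whereas dendritic cells express Ciita without it.

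The series holds RNA from bone marrow cells of male mice aged 12 weeks, cultured over 7 to 8 days with M-CSF (10 ng/ml) or with GM-CSF (20 ng/ml). The mice were diabetic db/db animals, labelled BKS.Cg-m+/+leprdb/J, or their db/+ littermates, labelled BKS.Cg-m+/+leprdb+/J. The db mutation disrupts the long, signalling form of the leptin receptor. Both strain names include m, for the misty allele, and denote a C57BLKS background. Whether the genotypes differed at m was not tested, and such a difference could not be told apart from db. There were 4 libraries, 1 for each combination of genotype and culture, and the sources used here do not say whether animals were pooled for a library.

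Each library held between 12801694 and 14311353 read pairs on genes. With 1 library in each group, no difference between a pair of libraries has a replicate check, and the 95% intervals of ratios below are exact binomial intervals on read pairs that cover counting error only. All 8 macrophage markers were present in every library, which does not by itself identify the cells. Csf1r and Emr1 (F4/80) were lower in GM-CSF, at 33550 and 11230 normalised reads against 120627 and 98662 in the db/+ libraries. The list was mixed: in the fit for culture given below 4 of the 8 passed as lower, these genes among them. Cd68 and Lyz2 passed as higher and 2 were not called, where 27.3% of all genes passed as lower and 29.8% as higher. The 8 markers summed to 540566 and 509858 in M-CSF and to 750088 and 749157 in GM-CSF. The dendritic cell integrin Itgax (CD11c) was at 775 and 921 normalised reads in M-CSF and at 56042 and 56259 in GM-CSF, while Flt3, another dendritic cell marker, was listed at 0 in both GM-CSF libraries. Among genes with 200 to 1000 reads, the 2 GM-CSF libraries deviated from each other by 1.09 times the sampling variance, and the 2 M-CSF libraries by 6.71 times. Among genes with 1000 to 50000 reads these values were 1.69 and 24.6. The GM-CSF libraries of opposite genotype thus lay close to counting noise, closer than the M-CSF pair. The labels give them as separate samples, but these values do not show that they came from separate cells or RNA. The GM-CSF genotype ratios, the comparison of the genotype ratios between cultures and the p-values for culture below all rest on that label. In RNA from whole cultures, fewer cells of a type and less RNA per cell cannot be told apart.

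The promoters are shown first, because Ciita acts through them. Their letters are those of the reference genome and were not compared with the alleles of these mice. Their part in the differences between cultures was not tested. RefSeq promoter windows of the build GRCm38.p6 were used for 7 of the 10 members, all on chromosome 17. No window was matched for H2-Ab1 or Ciita. Cd74 was left out of the promoter search by choice and not for want of a match, so its promoter is not described here. The build differs from those named for the deposited values, so no position of the deposited data is implied. In each stretch of 70 bases below, written 5′ to 3′ on the gene's strand, the capitals mark ATTGG, which is the Y box core CCAAT read on the other strand, and, where present, a match to an X box pattern.
H2-Eb1 (chr17:34305758-34305827, + strand): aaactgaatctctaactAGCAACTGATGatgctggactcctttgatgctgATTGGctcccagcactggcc
H2-DMb1 (chr17:34153080-34153149, + strand): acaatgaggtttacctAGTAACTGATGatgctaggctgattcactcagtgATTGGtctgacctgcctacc
H2-DMb2 (chr17:34145109-34145178, + strand): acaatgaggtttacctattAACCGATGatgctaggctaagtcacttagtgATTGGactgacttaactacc
H2-Ob (chr17:34238798-34238867, + strand): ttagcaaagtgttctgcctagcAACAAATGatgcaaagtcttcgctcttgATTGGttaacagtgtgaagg
H2-Aa (chr17:34287852-34287921, - strand): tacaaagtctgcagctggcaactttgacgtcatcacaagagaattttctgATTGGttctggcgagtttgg
H2-Oa (chr17:34092286-34092355, + strand): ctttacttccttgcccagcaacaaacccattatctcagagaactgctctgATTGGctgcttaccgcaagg

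The Y box core lay close before the start in these 6 genes. Its first base was 43 bases before the start in H2-Oa, 48 in H2-Aa, 57 in H2-Ob, 59 in H2-Eb1, 61 in H2-DMb1 and 90 in H2-DMb2. CCAAT on either strand is common, and 33.8% of all 32851 promoter windows held it in the 250 bases before the start. A longer X box pattern of 11 bases, in capitals in H2-Eb1 and H2-DMb1, was found on either strand in 0.816% of windows. It stood in both genes ahead of ATTGG, and in H2-Oa farther upstream, 141 bases before the start and outside the stretch printed. A shorter pattern, AACNNATG, which overlaps the longer one and was chosen after the sequences were seen, was found in 7.71% of windows and also in H2-DMb2 and H2-Ob. The spacing from the start of the X match to ATTGG was 31 bases in H2-DMb1 and H2-DMb2, 30 in H2-Eb1 and 28 in H2-Ob. An AACNNATG followed by ATTGG at a spacing of 20 to 45 bases, a range also chosen after the sequences were seen, occurred in 38 windows, or 0.116% of all. Those 38 windows included H2-Eb1, H2-DMb1, H2-DMb2 and H2-Ob. H2-DMa has a pair of annotated starts: no CCAAT or X pattern was found before the upstream start, and a CCAAT lay 198 bases before the other. A match is a run of letters and was not tested as a binding site. Only these patterns were searched, so a stretch without a marked match, as in H2-Aa, may still hold an X box.

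**Figure D1:**
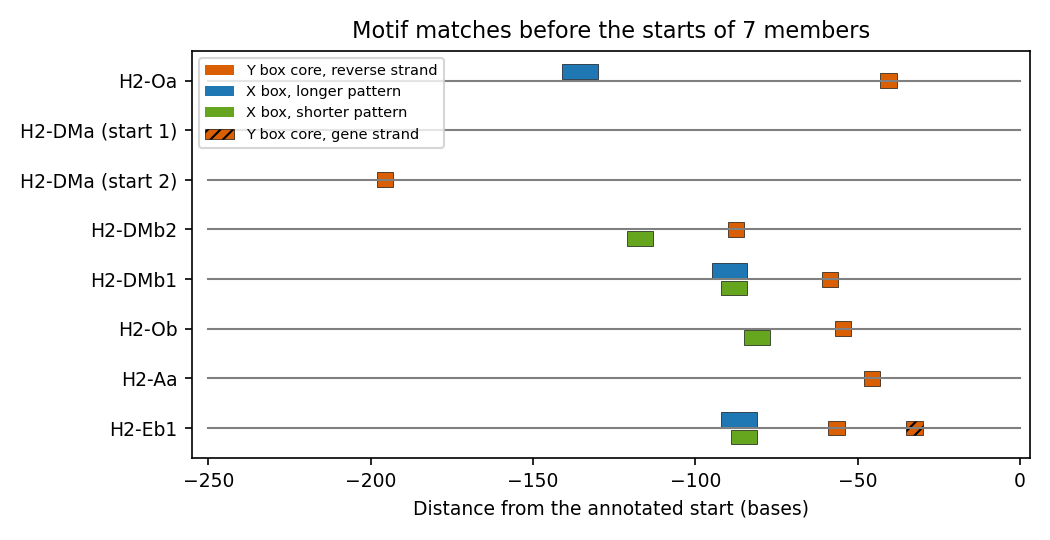
Motif matches in the 250 bases before the annotated start of 7 members, drawn along the distance from the start in bases. Orange marks the Y box core, blue the longer and green the shorter X box pattern; in H2-Eb1, H2-DMb1, H2-DMb2 and H2-Ob a green mark precedes an orange mark by 28 to 31 bases.

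The chain genes and Cd74 were the most highly read members and the H2-O genes the least. Cd74 was at 49680 normalised reads in M-CSF db/+, 37748 in M-CSF db/db, 76588 in GM-CSF db/+ and 75149 in GM-CSF db/db. H2-Aa, the alpha chain of H2-A, was at 16173.5, 12333, 20005.5 and 20153 in the same order, and this order of libraries is kept below. H2-Ab1, its beta chain, was at 12790.2, 9663, 13475 and 13797. Both chains and Cd74 had their lowest value in the db/db library of the M-CSF culture. H2-Eb1, the beta chain of H2-E, was at 9842, 7669.6, 12019 and 11529. Its partner, the alpha chain gene, is annotated as H2-Ea-ps because C57BL/6 mice carry a promoter deletion that silences it. In these mice H2-Ea-ps was read at 8993, 7307, 10258 and 10215, so both chains of H2-E were present as RNA in all 4 libraries. Class II alleles differ between strains, and whether reads of the mice's own alleles were placed as well as those of the reference was not tested.

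The peptide-loading genes were read at lower levels. H2-DMa was at 1742, 1260.0, 846 and 830.5 normalised reads. H2-DMb1 was at 1160.4, 912, 1713 and 1776, and H2-DMb2 at 541, 379.9, 772 and 779. The alpha chain of H2-DM was thus higher in both M-CSF libraries, and both beta chain genes were higher in both GM-CSF libraries. For these genes, and for the H2-O genes and Ciita below, the share of all genes separated by culture like this was not counted. In the fit for culture given below, 57.1% of all genes passed. H2-DMb1 and H2-DMb2 are near copies: their transcripts were identical at 94.4% of aligned bases, and 27.2% of the 50-base windows of H2-DMb1 recurred unchanged in H2-DMb2, so the split of reads between them is uncertain. H2-DMa shares 10.4% of its exonic bases with Brd2 on the other strand, and the sources used here do not say whether the libraries keep strand. Brd2 was at 6201, 5852, 6405 and 6567, with its higher values in GM-CSF.

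The H2-O genes were near the limit of detection in M-CSF. H2-Oa was at 8.6, 4.3, 53.8 and 34.4 normalised reads, where 3 read pairs correspond to 5.23 to 6.73 normalised reads. H2-Ob was at 20.9, 41.8, 72.9 and 66.7. Both were higher in each GM-CSF library than in either M-CSF library. H2-Oa shares 22.8% of its exonic bases with the antisense gene BC051537, which was at 9.0 normalised reads or fewer in every library. H2-O is best known from B cells. Of 6 B cell markers tested for culture, 4 passed as lower in GM-CSF, Ms4a1 and Ebf1 among them, 1 as higher (Cd22) and 1 was not called. In that fit 27.3% of all genes passed as lower and 29.8% as higher. Ms4a1 (CD20) was at 11.4 and 27.9 in M-CSF and listed at 0 in both GM-CSF libraries, and Ebf1 was at 64.7 and 156.8 against 0. Which cells the Ebf1 reads came from was not tested. The summed level of the 8 B cell markers was 660 and 744 in M-CSF and 3610 and 3797 in GM-CSF, almost all of it Cd22, which was at 3573 and 3775 in GM-CSF. Pax5 was at 6.1 or fewer throughout.

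With the deposited scaling, Ciita ran opposite to the chains between the cultures. With the libraries scaled to their totals, the log2 effect of culture on Ciita was -1.43. On that scale H2-Aa, H2-Ab1 and H2-Eb1 were at 0.17, -0.05 and 0.10 and were not called. Ciita was at 2630 normalised reads in M-CSF db/+, 1740.1 in M-CSF db/db, 951 in GM-CSF db/+ and 1059.7 in GM-CSF db/db. Both M-CSF libraries lay above both GM-CSF libraries, and the db/db library was the lower of the M-CSF pair and the higher of the GM-CSF pair. Ciita shares 3.45% of its exonic bases with the antisense gene Dexi, which was at 299.6, 248.3, 225.4 and 271.1.

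**Figure D2:**
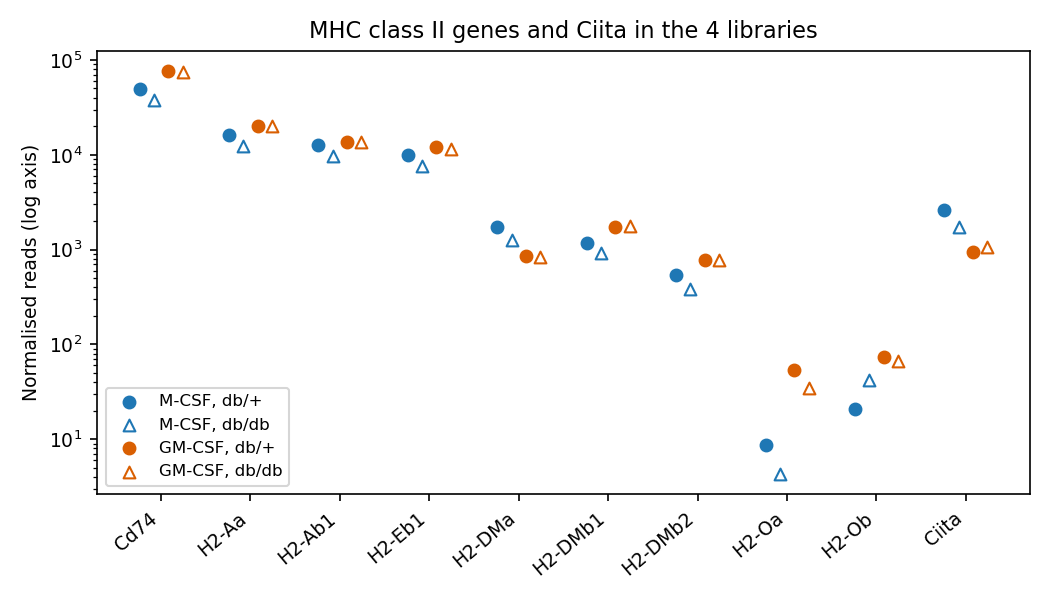
Normalised reads of the 10 genes, on a log axis, in the 4 libraries: circles are db/+, open triangles db/db, blue M-CSF and orange GM-CSF, with 1 library per symbol and no error bar. Ciita and H2-DMa lie higher in blue, the other genes lie higher in orange (with libraries scaled to their totals, H2-Aa, H2-Ab1 and H2-Eb1 change side in db/+), and the blue triangle lies under the blue circle for every gene but H2-Ob.

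Divided by the length of the longest coding transcript (GENCODE M21), the order of the levels could be compared between genes. Cd74 stood first in each library, at 26772 to 54318 normalised reads per kb, followed by H2-Aa at 10934 to 17866 and H2-Ab1 at 7973 to 11384. H2-Ea-ps came next at 7053 to 9901 and H2-Eb1 followed at 4595 to 7201. On the shorter coding transcript H2-Eb1 came to 6550 to 10264 per kb, so the order of the pair H2-Ea-ps and H2-Eb1 is not settled by these data. H2-DMb1 (650 to 1265 per kb), H2-DMa (414 to 869), H2-DMb2 (256 to 525) and Ciita (158 to 438) formed a lower tier. Within that tier the order depended on the library and on the transcript used, and Ciita came to 587 to 1623 per kb on its shorter transcript. H2-Oa (3.95 to 49.4 per kb) and H2-Ob (7.83 to 27.3) were lowest, and their order also turned between libraries.

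The comparison of genotypes in M-CSF asks how the diabetic background bears on the members in cells grown with M-CSF. Of the 10 genes, 9 were lower in the db/db library, by 1.27 to 2.00 times, and H2-Ob alone was higher. Of the 13642 genes that reached 20 normalised reads in at least 1 library, 45.9% were lower and 54.0% higher. At least 1.2-fold lower, on the scale of log2(value + 5), were 9 of the 10 members against 12.2% of all genes, and 1 member, H2-Ob, was higher by that much against 20.1%. No member reached 2-fold on that scale, which 0.777% of genes passed as lower and 5.05% as higher. The median log2 fold of the 10 members was -0.40, and that of all genes 0.02 with quartiles of -0.14 and 0.20.

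The chains and Cd74 were lower by nearly the same factor. The ratio of db/db to db/+ in M-CSF was 0.763 for H2-Aa (95% interval 0.739 to 0.787), 0.756 for H2-Ab1 (0.729 to 0.783), 0.779 for H2-Eb1 (0.748 to 0.811) and 0.760 for Cd74 (0.746 to 0.774). These 4 intervals overlap one another. H2-Ea-ps, the partner chain of H2-Eb1, was at a ratio of 0.813 (0.779 to 0.847). Among the loading genes the ratio was 0.723 for H2-DMa (0.655 to 0.798), 0.786 for H2-DMb1 (0.698 to 0.885) and 0.702 for H2-DMb2 (0.586 to 0.840). Ciita had the lowest ratio of the 8 well-read members, 0.662 (0.609 to 0.718), and its interval lay below those of H2-Aa, H2-Ab1, H2-Eb1 and Cd74. For H2-Oa the ratio of 0.500 (0.0634 to 2.99) and for H2-Ob that of 2.00 (0.943 to 4.52) were not distinguishable from 1 at this depth. The interval thus lay below 1 for 8 of 10 members, against 14.3% of all genes. Such intervals narrow with more reads, and the share among genes read as deeply as these 8 was not computed.

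Markers of other cells moved with the genotype in M-CSF. The summed level of the 8 stromal markers (collagens, Postn, Sparc and others) was 26498 in db/+ and 73243 in db/db, and each of the 8 was higher in db/db by 2-fold or more. The summed level of the 8 macrophage markers was 540566 and 509858, with 8 of 8 lower by a median log2 fold of -0.08. Of these, 1 was lower by at least 1.2-fold, against 12.2% of all genes: Cd68, at a ratio of 0.728 (0.705 to 0.752). The part of these shifts in the class II result was not tested. When both M-CSF libraries were scaled to equal geometric means of the macrophage markers, a setting added after the data were seen, the median of the 10 members was -0.25 and that of all genes 0.17. On that scale Ciita was at -0.45, Cd74 at -0.25 and H2-Aa at -0.24. The class I presentation genes also leaned lower: 12 of 13 were lower, 6 by at least 1.2-fold, with a median log2 fold of -0.26. The difference between the class I and class II lists was not tested.

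In GM-CSF the same comparison of genotypes gave ratios near 1. The median log2 fold of the members was -0.01 and that of all genes 0.01, with 5 members lower and 5 higher against 46.0% and 52.4% of all genes. The count of members lower by at least 1.2-fold was 1 of 10, H2-Oa, against 8.97% of all genes, and none was higher by that much, against 9.46%. No member was 2-fold apart, where 0.476% of genes were lower and 0.586% higher by that much. H2-Aa was at a ratio of 1.01 (0.978 to 1.04), H2-Ab1 at 1.02 (0.988 to 1.06), H2-Eb1 at 0.959 (0.923 to 0.996) and Cd74 at 0.981 (0.967 to 0.996). H2-Eb1 and Cd74 were the members whose interval lay below 1, against 2.39% of all genes, many of them read less deeply. Ciita was at 1.11 (0.976 to 1.27), H2-DMa at 0.982 (0.850 to 1.13), H2-DMb1 at 1.04 (0.939 to 1.15) and H2-DMb2 at 1.01 (0.868 to 1.17). The intervals of these 4 genes leave out a ratio as low as that seen in M-CSF for the same gene. H2-Oa, at 0.639 (0.317 to 1.25), and H2-Ob, at 0.915 (0.541 to 1.54), had wide intervals. Stromal markers summed to 260 and 304 in these libraries.

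Set against each other, the genotype ratios of the 2 cultures differed by more than counting error for 8 of the 10 members, in each with the higher ratio in GM-CSF. Of 13143 genes with reads in every library, 11.1% had an interval above 1 and 12.1% one below 1, and of the 5696 that reached 1000 normalised reads 20.2% had one above 1. The ratio in GM-CSF over that in M-CSF was 1.32 for H2-Aa (1.27 to 1.38), 1.36 for H2-Ab1 (1.29 to 1.42), 1.23 for H2-Eb1 (1.16 to 1.30) and 1.29 for Cd74 (1.26 to 1.32). It was 1.36 for H2-DMa (1.14 to 1.61), 1.32 for H2-DMb1 (1.13 to 1.54), 1.44 for H2-DMb2 (1.14 to 1.81) and 1.68 for Ciita (1.44 to 1.96). H2-Oa, at 1.28 (0.241 to 6.80), and H2-Ob, at 0.457 (0.192 to 1.09), could not be told from 1. These intervals are normal approximations on the log scale from the read pairs. They hold for the 4 libraries and not for the spread between animals, which 1 library per group cannot show.

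**Figure D3:**
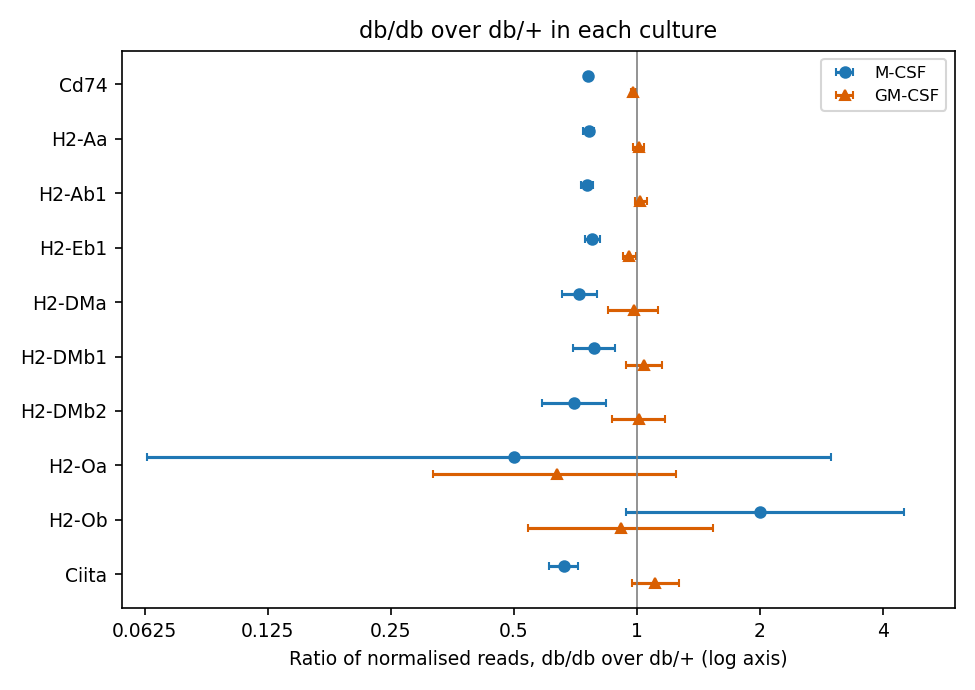
Ratio of normalised reads, db/db over db/+, on a log axis for the 10 genes, with M-CSF as blue circles and GM-CSF as orange triangles; bars are 95% counting intervals. In M-CSF 8 intervals lie below 1, with ratios from 0.662 to 0.786, while in GM-CSF the ratios of the same 8 genes lie between 0.959 and 1.11.

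Fitted over both cultures, the main effect of genotype passed the threshold for 0 of the 10 members. Every member had an adjusted p of 1.0 (limma, Benjamini-Hochberg over all 13642 genes), and 1 gene, Sparc, passed, which is 0.00733% of those tested. At an unadjusted p under 0.05 there was 1 member, H2-Eb1, with a log2 effect of -0.21 and a p of 0.0421, and 4.42% of all genes. edgeR's quasi-likelihood test and DESeq2 on the recovered reads also called 0 members, with 2 (H2-Eb1 and H2-DMa) and 1 (Cd74) at an unadjusted p under 0.05, against 6.05% and 0.821% of all genes. Such a fit averages the M-CSF and GM-CSF ratios given above, and its residual is the difference between them.

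The comparison of cultures asks how cells grown with either growth factor differ in the class II genes. In db/+ mice 8 members were higher and 2 lower in GM-CSF, against 51.9% and 48.0% of all genes, although H2-Aa, H2-Ab1 and H2-Eb1 changed side under another scaling given below. H2-Oa and H2-Ob were at least 2-fold higher, against 12.0% of all genes, and Ciita and H2-DMa at least 2-fold lower, against 15.7%. In db/db mice the same 8 were higher, against 50.6% of genes higher and 49.3% lower. There H2-DMb2 and H2-Oa passed 2-fold, against 11.3% of genes higher by that much, and no member was 2-fold lower, against 15.8%. At 1.2-fold, 7 members were higher and 2 lower in db/+, against 35.4% and 34.2% of genes, and 8 higher and 2 lower in db/db, against 33.8% either way. The median log2 fold of the members was 0.41 in db/+ and 0.66 in db/db, against 0.03 and 0.01 for all genes. These contrasts share their libraries with the genotype contrasts, so the larger ratios in db/db restate the lower M-CSF db/db values. The 10 dendritic cell markers moved with the culture as well. In the fit given below 7 passed as higher and 1 as lower, against 29.8% and 27.3% of all genes. These markers summed to 1265 and 1406 normalised reads in M-CSF and 60029 and 60130 in GM-CSF, most of it Itgax. Their part in the class II result was not tested.

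Among the genes that were higher, Cd74 had ratios of GM-CSF to M-CSF of 1.54 (1.52 to 1.57) in db/+ and 1.99 (1.96 to 2.02) in db/db. H2-Aa was at 1.24 (1.2 to 1.27) and 1.63 (1.58 to 1.69), and H2-Eb1 at 1.22 (1.18 to 1.27) and 1.5 (1.44 to 1.56). H2-Ab1 had the smallest ratios of the chains, 1.05 (1.02 to 1.09) and 1.43 (1.38 to 1.48). The direction of the chains in db/+ turned with the scaling: scaled to the library total, the log2 folds of H2-Aa, H2-Ab1 and H2-Eb1 were -0.02, -0.25 and -0.04, on a scale where the median of all genes was -0.29. H2-DMb1 was at 1.48 (1.33 to 1.64) and 1.95 (1.74 to 2.18), and H2-DMb2 at 1.43 (1.21 to 1.67) and 2.05 (1.73 to 2.44). The H2-O genes had the widest intervals, with H2-Oa at 6.26 (2.26 to 22.7) and 8.00 (2.08 to 52.1) and H2-Ob at 3.49 (1.71 to 7.65) and 1.60 (0.906 to 2.84).

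The genes that were lower in GM-CSF were Ciita and H2-DMa. Ciita was at a ratio of 0.362 (0.324 to 0.404) in db/+ and 0.609 (0.546 to 0.679) in db/db. H2-DMa was at 0.486 (0.430 to 0.548) and 0.659 (0.581 to 0.747). In both genotypes the intervals of these genes lay apart from those of every other member.

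**Figure D4:**
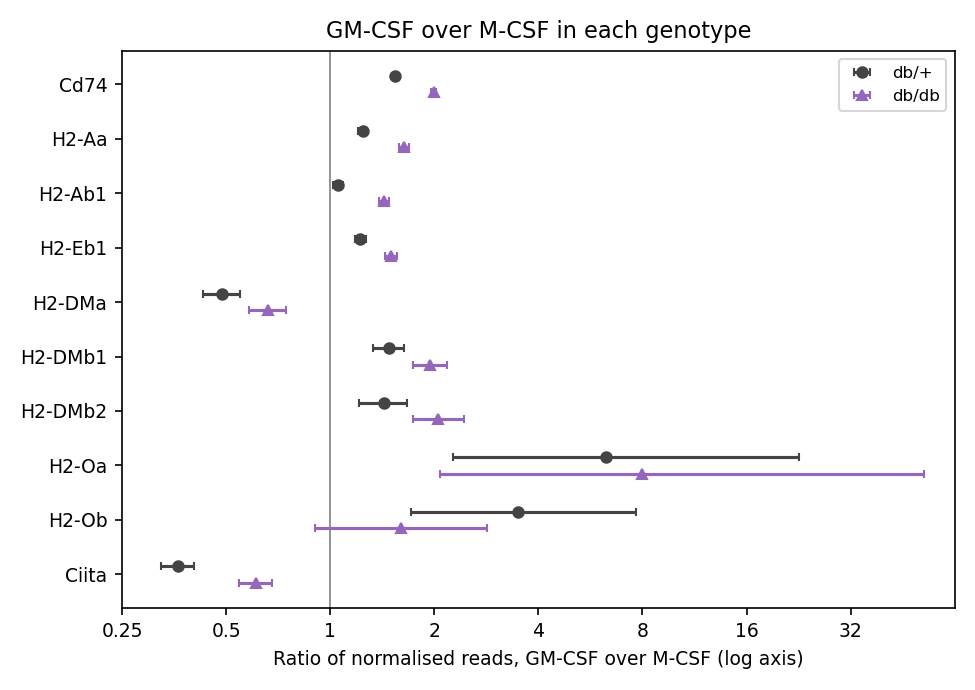
Ratio of normalised reads, GM-CSF over M-CSF, on a log axis for the 10 genes, with db/+ as dark circles and db/db as purple triangles; bars are 95% counting intervals. H2-DMa and Ciita lie below 1 in both genotypes and the other 8 genes above 1, where the db/+ points of H2-Aa, H2-Ab1 and H2-Eb1 pass to the other side when the libraries are scaled to their totals.

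In the fit over both genotypes all 10 members passed the threshold for culture, 8 higher and 2 lower, where 57.1% of all genes passed, 29.8% higher and 27.3% lower. A call for culture was thus common among all genes. With 1 library per group, the residual of this fit is the difference of the culture effect between the genotypes, moderated across genes. The SE and p-values below therefore do not measure the spread between animals or between repeated cultures. Ciita had a log2 effect of -1.09 (SE 0.14, adjusted p = 8.25e-06 by limma with Benjamini-Hochberg adjustment) and H2-DMa one of -0.82 (SE 0.12, adjusted p = 2.54e-05). Cd74 rose by 0.81 (SE 0.13, adjusted p = 7.93e-05), H2-DMb1 by 0.76 (SE 0.11, adjusted p = 2.98e-05) and H2-DMb2 by 0.77 (SE 0.14, adjusted p = 2.75e-04). The chains rose less, H2-Aa by 0.51 (SE 0.11, adjusted p = 8.27e-04), H2-Eb1 by 0.44 (SE 0.09, adjusted p = 0.00106) and H2-Ab1 by 0.29 (SE 0.10, adjusted p = 0.0264). H2-Oa rose by 2.10 (SE 0.44, adjusted p = 9.66e-04) and H2-Ob by 1.10 (SE 0.35, adjusted p = 0.0149).

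As given above, the 2 GM-CSF libraries differed by little more than counting error. With those libraries averaged into 1, a setting added after the data were seen, 5 members passed (Cd74, Ciita, H2-DMa, H2-DMb1 and H2-Oa), along with 36.8% of all genes. Scaled to the library totals, 6 members passed, the same 5 and H2-DMb2, along with 63.5% of all genes, and H2-Ab1 turned to -0.05 (adjusted p = 0.699), while the median of all genes moved from 0.02 to -0.32. Over 14 alternatives the adjusted p of Ciita ranged from 3.66e-08 to 0.163 and that of H2-Ab1 from 0.00507 to 0.699.

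Ratios between members within a library do not depend on the scaling of the libraries. H2-DMa over the sum of H2-DMb1 and H2-DMb2 was 1.02 and 0.975 in the M-CSF libraries and 0.340 and 0.325 in the GM-CSF libraries. Per kb of the longest transcript that ratio was 0.729 and 0.694 against 0.242 and 0.231. The alpha chain gene of H2-DM was thus lower relative to its beta chain genes in both GM-CSF libraries, and the sum does not depend on how reads were split between the beta chain copies. Cd74 over the sum of H2-Aa, H2-Ab1 and H2-Eb1 was 1.28 and 1.27 in M-CSF and 1.68 and 1.65 in GM-CSF. H2-Aa over H2-Ab1 was 1.26 and 1.28 against 1.48 and 1.46. H2-Aa over Ciita was 6.15 and 7.09 against 21.0 and 19.0. In each of these 4 ratios the cultures did not overlap, and the 2 genotypes of a culture lay closer to each other than to the other culture. How often the ratios of other gene pairs separate the cultures was not counted. H2-DMb1 over H2-DMb2, at 2.14, 2.40, 2.22 and 2.28, showed no such split. The H2-DM beta chain reads over the H2-O reads were 57.7 and 28.0 against 19.6 and 25.3, a ratio that rests on the few reads of H2-O.

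**Figure D5:**
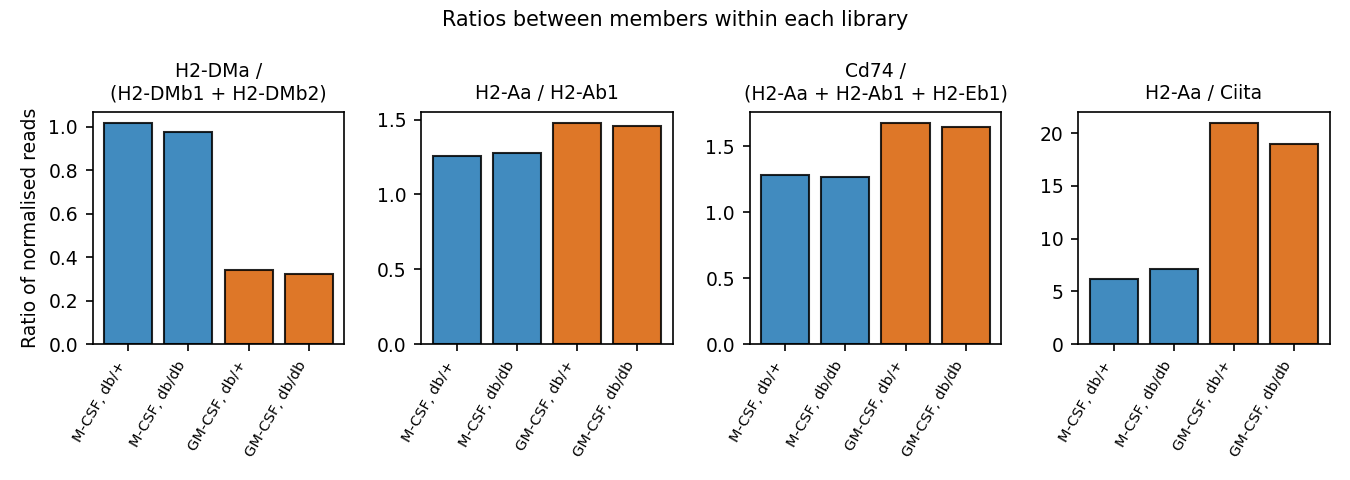
Ratios of normalised reads between members within each library, as bars from 0 with 1 library per bar, M-CSF in blue and GM-CSF in orange. H2-DMa over H2-DMb1 plus H2-DMb2 falls from 1.02 and 0.975 to 0.340 and 0.325, and the other 3 ratios are higher in both GM-CSF libraries.

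The factors that recruit or induce Ciita were read from a list of 20 genes, all of them measured. In the culture fit 5 passed as higher and 9 as lower, against 29.8% and 27.3% of all genes. The median log2 effect of the list was -0.25, against 0.02 for all genes. Scaled to the library totals, 2 passed as higher (Irf4 and Jak2) and 13 as lower. On that scale 2293 of 13702 genes passed as higher and 6410 as lower, and the all-gene median was -0.32. The sign changed for 1 gene called in either fit, Sfpi1. Irf1, which acts on the Ciita promoter after interferon gamma, was at 3778, 3162, 1146 and 1098 normalised reads, an effect of -1.62 (limma adjusted p = 1.33e-09). Ifngr1, the ligand-binding chain of the interferon gamma receptor, was at 6688.5, 6923, 2895 and 2914, an effect of -1.23 (adjusted p = 8.54e-09). Both genes were lower in both GM-CSF libraries, in the same direction as Ciita. Irf8, a myeloid factor, fell too (effect -0.64, adjusted p = 2.95e-05), while Irf4 was at 1014, 883.5, 3139 and 3021, an effect of 1.70 (adjusted p = 7.99e-10). Ifngr2, the signalling chain of the receptor, rose by 0.39 (adjusted p = 8.63e-04). Jak1 (effect -0.01, adjusted p = 0.955) and Spi1, listed as Sfpi1 and known as PU.1 (effect 0.08, adjusted p = 0.468), did not pass. With total scaling both passed as lower, Jak1 at -0.35 (adjusted p = 0.00345) and Sfpi1 at -0.26 (adjusted p = 0.0167), while Ifngr2 lost its call at 0.05 (adjusted p = 0.588).

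The RFX subunits are named for their role and not by the rule on level and fold. Rfx5, at 659, 595, 432 and 436, fell by 0.52 (limma adjusted p = 0.00288), Rfxank rose by 0.46 (adjusted p = 0.00505) and Rfxap had an effect of 0.06 (adjusted p = 0.752). With total scaling Rfxank lost its call, at 0.12 (adjusted p = 0.404). By genotype in M-CSF the list of 20 had a median log2 fold of -0.12, with 2 genes lower by at least 1.2-fold and none 2-fold apart. Irf1 was at a ratio of 0.837 and Irf8 at 0.838, each nearer to 1 than the 0.662 of Ciita, and 0 of the 20 passed the test for genotype.

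Endosomal processing genes mostly rose in GM-CSF. Of 7 measured, 5 passed as higher and 1 as lower, against 29.8% and 27.3% of all genes. With total scaling 4 passed as higher and 2 as lower, where 2293 of 13702 genes passed as higher and 6410 as lower. The sign changed for 1 gene, 2010106G01Rik. Ctss, the protease that trims the invariant chain, was at 56563, 55693, 213517 and 207729 normalised reads, an effect of 1.91 (limma adjusted p = 2.99e-08). Ctsd, an aspartic protease, was at 165680.0, 150673, 763005.5 and 770735, an effect of 2.28 (adjusted p = 3.24e-07). Ctsl, another cysteine protease, rose by 1.03 (adjusted p = 5.28e-07), Ifi30, the endosomal thiol reductase, by 0.90 (adjusted p = 3.18e-07) and Ctsb by 0.70 (adjusted p = 0.0101). Lgmn, the asparaginyl endopeptidase, went the other way, at 36574, 31865, 17898 and 16985, an effect of -0.97 (adjusted p = 8.13e-07). Sppl2a, listed as 2010106G01Rik, which clears the last remnant of the invariant chain, had an effect of 0.02 (adjusted p = 0.883). With total scaling 2010106G01Rik passed as lower at -0.33 (adjusted p = 0.00389) and Ctsb lost its call at 0.36 (adjusted p = 0.0883). By genotype in M-CSF none of the 7 was 1.2-fold apart, and their median log2 fold was -0.09.

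Interleukin 10 and its receptor, which restrain class II at the surface, were lower in GM-CSF. Il10 was at 237.8 and 245.7 normalised reads in M-CSF and listed at 0 in both GM-CSF libraries, at least 35.3-fold lower in db/+ and 38.1-fold lower in db/db against a floor of 3 read pairs per library. Il10ra was at 8331, 7553, 3807 and 3601, an effect of -1.10 (limma adjusted p = 3.07e-08), and Il10rb fell by 0.28 (adjusted p = 0.00987). All 3 measured genes of that list thus passed as lower, and the ubiquitin ligase genes March1 and March8 were not analysed here. Class I presentation genes were mixed, with 4 of 13 higher (B2m, Tap2, Erap1 and H2-T23), 4 lower (H2-K1, Tap1, Psmb9 and Nlrc5) and 5 not called. Of all genes, 29.8% passed as higher and 27.3% as lower. Tap2 and Erap1 changed sign with total scaling, where 0 of the 13 were higher and 6 lower. On that scale 2293 of 13702 genes passed as higher and 6410 as lower. Nlrc5, the class I counterpart of Ciita, was at 1371, 1134, 923 and 889, an effect of -0.46 (adjusted p = 0.00170). The minor class II beta chain gene H2-Eb2 was at 21.9, 11.3, 6.7 and 17.2, with no call.

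Other genes followed the same course over the 4 libraries. Among 5693 genes that reached 1000 normalised reads in at least 1 library, the nearest to the mean course of H2-Aa, H2-Ab1, H2-Eb1 and Cd74 was Card9, an adaptor of fungal lectin receptors, at 1375, 1075, 1772 and 1784. Its distance was 0.044 on the log2 scale over the 4 libraries, and Anapc11, Atg2a and Rin3 were among the next, at 0.046 to 0.072. Nearest to Ciita was Oas1a, an interferon-induced gene, at 3398.5, 2552, 1261 and 1380, with a distance of 0.147. Hist4h4, Rhog, Zfp710 and Hist1h4c followed at 0.154 to 0.175, and the histone genes among them belong to a family of near-identical copies whose reads are uncertain. With 4 libraries, many genes can share a course, and these distances are a description without a test.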

How the data were processed

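Ribosomal RNA was removed and the rest read as pairs, per the labels' protocols. The deposited values are a normalised signal: read counts that the authors divided by a size factor per library and rounded to 1 decimal, with TMM factors by the deposited files' naming. TopHat 1.2.0 and edgeR, with builds mm8 and mm9 in no stated role, come from the submitters' processing notes; the sources used here give neither counting nor strand. Low values were whole multiples of 1 step per library, so reads were recovered (100% of low values within 0.1 read); even counts predominated, and intervals used pairs, which without molecular identifiers are not independent molecules. There were 0 unused columns.

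The members and lists were chosen with earlier results of these data known. Named genes are all 10 members and, from each list, at most 8 that were most abundant or past 2-fold; likeness was ranked by Euclidean distance of centred log2 values. Folds are on log2(value + 5), which understates the change of low genes. Main effects came from limma 3.58.1 (culture plus genotype, variance trend, 1 residual and 12.87 prior degrees of freedom, two-sided, threshold 0.05) over genes reaching 20, and the procedure was tested on simulated data. edgeR 4.0.16 and DESeq2 1.42.0 on the recovered reads, other pseudocounts, minimums and scalings, and leaving out each library were alternatives. Some genes of the lists are not reported here.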

Additional observations from a re-analysis of the deposited data

How the results depend on the processing

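No paired analysis was possible because the labels give no replicate numbers and each group holds 1 library. Of 79 values that answer a comparison, 62 stayed within their error or within 1.5 times under an alternative. Called at 1.2-fold in place of 2-fold, 10 members were apart by genotype in M-CSF and 1 in GM-CSF. Of all genes, 20.1% were higher and 12.2% lower by that much in M-CSF, and 9.46% and 8.97% in GM-CSF. By culture 9 members were apart in db/+ and 10 in db/db, and 33.8% to 35.4% of all genes passed in each direction. At a minimum of 200 normalised reads, which drops the H2-O genes, the 2-fold count by culture was 2 in db/+ (4 as reported) and 1 in db/db (2 as reported). In db/db it was also 1 with a pseudocount of 20 and 1 with H2-DMb1 and H2-DMb2 summed. Scaling to the library totals put the median log2 fold of the members by culture at 0.08 in db/+ (0.41 as reported) and 0.32 in db/db (0.66 as reported), and turned the main effect of H2-Ab1 to -0.05. The same scaling moved the share of all culture calls that were higher from 52.2% to 26.3%, and that of 2-fold calls from 43.3% to 29.3% in db/+ and from 41.8% to 27.6% in db/db. Scaling on macrophage markers put the M-CSF genotype median at -0.25.

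In the culture fit the members called were 5 to 9 when a library was left out, with the lone library of an arm assumed to vary like the others: 5 without either GM-CSF library and 9 without either M-CSF library. They were 5 without a variance trend, 5 with the GM-CSF libraries averaged, 6 with total scaling and 0 without a level minimum, where no gene of 22700 passed and 3 members had an unadjusted p under 0.05; the cause was not tested. edgeR called 9 and DESeq2 8. All-gene culture calls fell from 7787 to 5036 without GM-CSF db/+, 5020 without GM-CSF db/db and 4994 with these averaged. All-gene 2-fold counts by genotype ran from 334 (minimum 200) to 1366 (no minimum) around 795 in M-CSF, and from 1 (pseudocount 20) to 560 (pseudocount 1) around 145 in GM-CSF, with 13 at a minimum of 200 and 316 with none. By culture they fell from 3771 to 2318 in db/+ and from 3702 to 2225 in db/db at a minimum of 200. The genotype fit called 1 gene, 103 with edgeR, 2 with DESeq2 or a pseudocount of 1, and 3 at a minimum of 200. Of 180 single-member log2 folds, 6 changed sign: the 3 chains in db/+ with total scaling, and H2-Aa, H2-Ab1 and H2-DMb2 by genotype in GM-CSF with macrophage scaling, at -0.04, -0.02 and -0.04. Depth limits H2-Oa and H2-Ob, whose genotype intervals all span 1.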
